A study of Mus musculus with 2 samples.

Results

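The pituitary-thyroid axis was followed through 7 genes in the pituitary of Brdt-/- mice: Tshb, Trhr, Dio2, Thra, Thrb, Tshz3 and Sox14. They were chosen by name as thyrotroph genes and thyroid hormone receptor genes, and all 7 had a row among the 31784 gene rows of the deposited table. The data were 2 two-colour Agilent arrays. Each array set 1 pool of Brdt-/- pituitaries against 1 pool of wild-type pituitaries, with 2 pools per genotype and 3 mice per pool. All mice were 8 weeks old and on a C57BL/6 background. The Brdt-/- mice carried the tm1a allele, in which a lacZ trapping cassette and a neo cassette sit in the fourth intron of Brdt and remain in the genome. Wild-type pools were labelled male, and no sex was given for the Brdt-/- pools. The allele acts in the whole animal, so the gland and the thyroid and hypothalamus that regulate it were all of the same genotype. The study compared the pituitary transcripts of Brdt-/- mice with those of wild-type mice.

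Thyrotrophs are the pituitary cells that secrete thyrotrophin, the hormone that drives the thyroid gland. Thyrotrophin consists of a common alpha subunit, encoded by Cga, and a specific beta subunit, encoded by Tshb. Thyrotrophin-releasing hormone from the hypothalamus acts on the receptor encoded by Trhr and raises thyrotrophin secretion. Thyroid hormone closes the loop: the enzyme encoded by Dio2 converts thyroxine to the active triiodothyronine, which binds the nuclear receptors encoded by Thra and Thrb and lowers transcription of Tshb.

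Values are log2 ratios of Brdt-/- over wild type, array 1 before array 2, so a positive value means more RNA in the Brdt-/- pool. The direction was inferred and is not settled. In array 1 the Brdt-/- pool was in Cy5 and in array 2 it was in Cy3, and no label states which dye is on top of the deposited ratio. The E1A spike-in RNAs fill 10 rows, and each of these had 1 sign across the deposited columns. Both columns were therefore read as Cy5 over Cy3, and the sign of array 2 was turned. That reading assumes 1 spike-in mixture per dye on both arrays, which the sources used here do not state. Unless stated otherwise, values, signs and counts below are with array 2 turned. The deposited values are ratios without intensities, so neither the level of a gene nor its detection above background could be read. In whole pituitary RNA, fewer thyrotrophs and less RNA per thyrotroph cannot be told apart.

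Sequences are shown for the hormone gene and for the gene whose ratio had the same sign on both arrays with array 2 turned. They are RefSeq sequence of mouse build GRCm38.p6, with windows in the table for 5 of the 7 genes. The first is the Tshb promoter, chr3:102782715-102782964 on the minus strand, the 250 bases before the annotated start. Capitals mark TATAAA on either strand (the matches at the left end overlap), a letter pattern present in 13.6% of all 32851 promoter windows of 250 bases before to 50 bases after a start.
Tshb promoter: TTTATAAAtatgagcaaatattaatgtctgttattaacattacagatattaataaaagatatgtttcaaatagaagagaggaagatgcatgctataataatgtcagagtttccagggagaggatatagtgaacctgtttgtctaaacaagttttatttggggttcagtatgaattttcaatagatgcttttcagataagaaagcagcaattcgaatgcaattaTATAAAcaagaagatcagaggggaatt
The second is a stretch of 30 bases of Tshb after that start, chr3:102782667-102782696 on the minus strand. Its capitals mark GGGTCA, a pattern of the thyroid hormone response half-site type, found in 13.7% of all windows on either strand.
Tshb downstream stretch: tgaacggagagtGGGTCAtcacagcagtaa
The third is the Dio2 promoter, chr12:90739039-90739288 on the minus strand, again the 250 bases before the annotated start. Its capitals mark TGACGTCA, the full cyclic AMP response element, found in 1.79% of all windows on either strand. Its first base lay at position -95 from the start.
Dio2 promoter: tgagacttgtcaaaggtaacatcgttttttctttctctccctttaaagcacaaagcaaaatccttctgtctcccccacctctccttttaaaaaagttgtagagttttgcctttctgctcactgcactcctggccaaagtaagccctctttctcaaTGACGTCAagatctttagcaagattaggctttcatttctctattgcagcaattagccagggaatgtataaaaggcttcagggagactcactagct
The half-site AGGTCA, found in 16.3% of all windows on either strand, was in 1 of the 6 windows of these genes, a window of Thrb. These are letter matches and do not show that a factor binds there.

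Tshb RNA differed little between the genotypes on either array. Tshb was at 0.18 on array 1 (1.13-fold more in the Brdt-/- pool) and at -0.10 on array 2 (1.07-fold less). The 2 arrays lay on opposite sides of 0, with a mean of 0.04 ± 0.20 (SD, n = 2) and a 95% interval from limma of -0.47 to 0.55. Of all gene rows, 74.8% had a larger mean in size. Cga, whose alpha subunit is shared with the gonadotrophins, was at 0.91 and -0.25, again with opposite signs. Its array 1 value was above that of Tshb, and the difference of Tshb minus Cga was -0.73 on array 1 and 0.15 on array 2. With array 2 as deposited it was -0.73 and -0.15, the same order on both.

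Trhr, the receptor for thyrotrophin-releasing hormone, had the widest spread of the 7 genes with array 2 turned. It was at 0.70 on array 1 (1.62-fold more in the Brdt-/- pool) and at -0.59 on array 2 (1.501-fold less). No other gene of the 7 passed 1.5-fold on either array, a size that 13.8% of gene rows passed on array 1 and 9.19% on array 2. The arrays thus pointed in opposite directions, and the mean was 0.06 ± 0.91 (SD, n = 2; limma 95% interval -1.10 to 1.21), which turned to -0.027 when the arrays were scaled to the same SD. A gap between arrays larger than the 1.28 of Trhr was found in 6.94% of gene rows.

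Of 14 further genes of thyrotrophin-releasing hormone signalling, 0 were higher and 3 were lower on both arrays, and 10 had opposite signs. The remaining gene was at exactly 0 on at least 1 array. The medians were 0.00 on array 1 and -0.15 on array 2. Prkce, a protein kinase C isoform, was at -0.34 and -0.55. Plcb4, a phospholipase C that acts downstream of Gq-coupled receptors, was at -0.45 and -0.21. Prkca was at -0.07 and -0.19, while Plcb1 was at 0.07 and -0.38. None of the 14 passed limma's adjusted threshold (an adjusted p of 0.05), which 0.0% of gene rows passed. None was past 1.5-fold in 1 direction on both arrays, as 0.812% of gene rows were, and 41.1% of gene rows had the same sign on both.

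**Figure D1:**
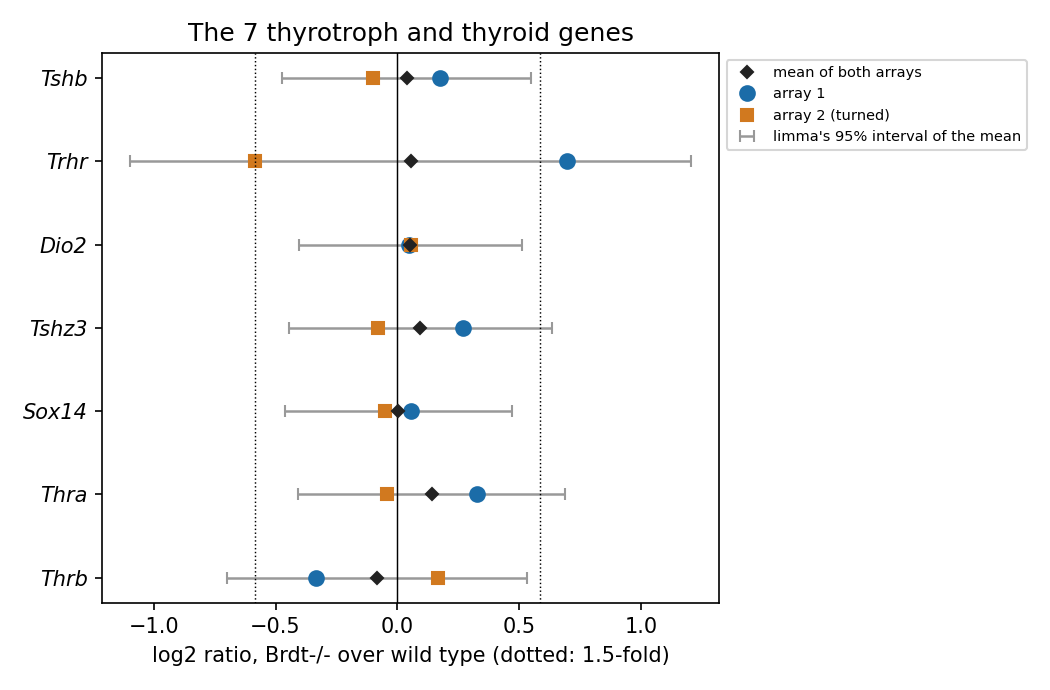
The log2 ratio of Brdt-/- over wild type (horizontal axis) of each of the 7 genes, with array 1 as circles, array 2 (sign turned) as squares, their mean as diamonds and limma's 95% interval of the mean as grey bars; dotted lines mark 1.5-fold. Every interval spans 0, and Trhr lies past 1.5-fold on both arrays in opposite directions, at 0.70 and -0.59.

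Dio2, which encodes the enzyme that makes triiodothyronine inside the cell, was the most alike between arrays with array 2 turned. It was at 0.05 on array 1 (1.03-fold more in the Brdt-/- pool) and at 0.06 on array 2 (1.04-fold more). In that orientation it was the only one of the 7 with the same sign on both arrays, and its mean was 0.053 ± 0.0066 (SD, n = 2). The limma interval was -0.40 to 0.51, wide because limma draws on the spread of all rows. A larger gap between arrays was found in 98.2% of gene rows, and 68.9% had a larger mean in size. With array 2 as deposited the SD of Dio2 was 0.075, above the 0.0050 of Sox14 and the 0.054 of Tshb.

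Among 12 other genes of thyroid hormone transport and metabolism, 2 were higher and 3 lower on both arrays. Over all gene rows, 41.1% had the same sign on both. The medians of the 12 were -0.14 and 0.03. Dio3, the enzyme that inactivates thyroid hormone, was at -0.32 and -0.45, a mean of -0.38 ± 0.09 (SD, n = 2). Crym, a cytosolic protein that binds triiodothyronine, was at 0.60 and 0.06. Sephs2, an enzyme that supplies selenium for selenoproteins such as the deiodinases, was at 0.16 and 0.48. Slc7a8, an amino acid transporter that can also carry thyroid hormone, was at -0.28 and -0.12. Of the 12, none passed limma's adjusted threshold.

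The thyroid hormone receptor genes Thra and Thrb had opposite signs to each other on each array. Thra was at 0.33 on array 1 (1.25-fold more in the Brdt-/- pool) and at -0.04 on array 2 (1.03-fold less). Its mean was 0.14 ± 0.26 (SD, n = 2; limma interval -0.41 to 0.69), and 41.1% of gene rows had a larger one in size. Thrb, whose product includes the receptor form that restrains Tshb, was at -0.33 on array 1 (1.26-fold less in the Brdt-/- pool) and at 0.17 on array 2 (1.12-fold more). Its mean was -0.08 ± 0.35 (SD, n = 2; limma interval -0.70 to 0.53). The log2 difference of Thra minus Thrb was 0.66 on array 1 and -0.21 on array 2. With array 2 as deposited it was 0.66 and 0.21, above 0 on both. The table holds 1 row per receptor gene and no probe position, so receptor isoforms could not be told apart. Nr1d1, the clock repressor gene that overlaps the end of Thra on the opposite strand in the RefSeq annotation, was at 1.02 and 0.18.

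Receptor partners are the retinoid X receptors and the corepressors and coactivators that thyroid hormone receptors recruit. Of 16, 2 were higher and 2 lower on both arrays, where 41.1% of gene rows had the same sign on both. The medians were -0.01 and -0.04. The largest means in size were those of Tbl1x of the corepressor complex at -0.23 and -0.14, the acetyltransferase gene Ep300 at -0.37 and 0.03, the coactivator gene Ppargc1a at -0.15 and -0.12, and Crebbp at 0.04 and -0.29. Of 10 genes known to respond to thyroid hormone, 2 were higher and 1 lower on both arrays, beside the same 41.1% of gene rows. The medians were 0.05 and -0.02. Thrsp, which thyroid hormone induces in liver, was at 0.40 and 0.20. Gh, which thyroid hormone induces in rat somatotrophs, was at 0.43 and -0.65, the neuronal protein gene Nrgn at 0.06 and -0.37, and the myelin gene Mbp at 0.23 and -0.49. None of these 26 genes passed limma's adjusted threshold.

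Tshz3 and Sox14 encode transcription factors, a teashirt zinc finger protein and a SOX family repressor. Tshz3 was at 0.27 on array 1 (1.21-fold more in the Brdt-/- pool) and at -0.08 on array 2 (1.06-fold less), a mean of 0.10 ± 0.25 (SD, n = 2; limma interval -0.44 to 0.63). Sox14 was at 0.06 on array 1 (1.04-fold more) and at -0.05 on array 2 (1.04-fold less). Its mean of 0.0035 ± 0.077 (SD, n = 2; limma interval -0.46 to 0.47) was the smallest of the 7 in size and turned to -0.0035 when the arrays were scaled to the same SD. With array 2 as deposited it was 0.05, and the smallest was that of Dio2 at -0.0047. With array 2 turned, 95.8% of all gene rows had a larger mean in size than Sox14. Both genes had opposite signs on the arrays. The Tshz3 paralogue Tshz1 was at -0.11 and 0.01, and Sox21, the closest relative of Sox14, was at -0.40 and -0.16.

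Of 12 lineage genes, Cga included, 2 were higher and 1 lower on both arrays, where 41.1% of gene rows had the same sign on both. The medians were 0.20 and -0.12. Gata2, a factor that activates Tshb together with POU1F1, was at 0.43 and 0.09. Lhx4, a LIM homeobox factor of early pituitary development, was at 0.33 and 0.07. Pou1f1, required for thyrotrophs, somatotrophs and lactotrophs, was at 0.02 and -0.39. None passed limma's adjusted threshold.

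Among 11 other regulators of thyrotrophs, 4 were higher and 2 lower on both arrays, where 41.1% of gene rows had the same sign on both. The medians were 0.06 on array 1 and 0.04 on array 2, while the median of the 11 mean ratios was -0.09. Sstr1, a receptor for somatostatin, which inhibits thyrotrophin secretion, was at 0.81 on array 1 and 0.86 on array 2. Its mean was 0.84 ± 0.03 (SD, n = 2; limma interval 0.38 to 1.29), and it missed the threshold after adjustment over all rows (limma, adjusted p = 0.999995). No other gene of the thyroid axis lists passed 1.5-fold in 1 direction on both arrays with array 2 turned, as 0.812% of gene rows did. With array 2 as deposited the mean of Sstr1 was -0.02, and 2 genes of these lists and the 7 passed instead, Trhr and the somatostatin gene Sst. In that orientation 3.17% of gene rows passed. Sst, named after its values were seen, was then at 0.68 and 0.96. Sstr2, another somatostatin receptor gene of the pituitary, was at 0.09 and 0.39. Nmb, a peptide gene of thyrotrophs that inhibits thyrotrophin release in rodents, was at -0.28 and -0.43. Tshr, the thyrotrophin receptor, was at -0.70 and 0.11.

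**Figure D2:**
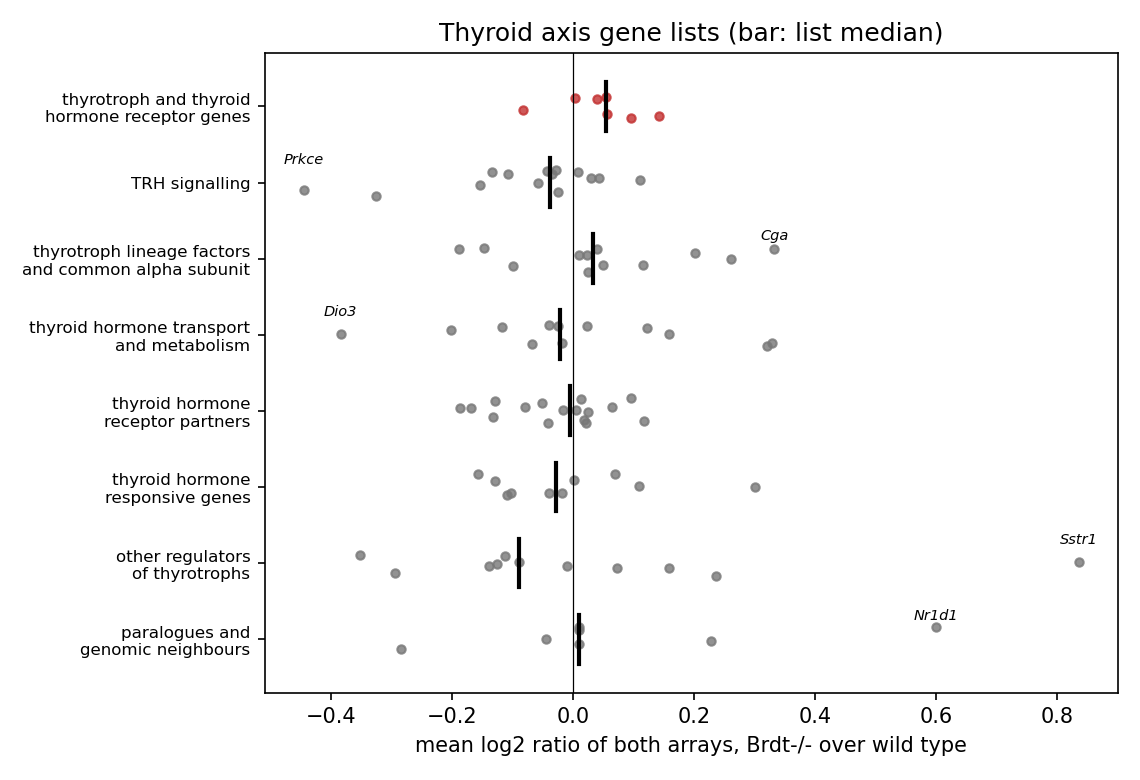
Mean log2 ratio of both arrays, Brdt-/- over wild type (horizontal axis), for each gene of the thyroid axis lists, with 1 point per gene and a vertical bar at each list's median; points are spread vertically only to separate them. The 7 thyrotroph and thyroid hormone receptor genes (top) lie between -0.08 and 0.14, while Sstr1 lies at 0.84 and Nr1d1 at 0.60.

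By the median, the 7 genes had smaller mean ratios in size than all gene rows with array 2 turned. By the median they had larger ones with array 2 as deposited. This did not hold for each of the 7 in either orientation. Their median mean ratio was 0.05, against 0.0025 over all gene rows, and their median mean in size was 0.055, against 0.11; with array 2 as deposited it was 0.17, against 0.14. Per array their medians were 0.18 and -0.05, against -0.03 and 0.03 over all gene rows. In size the median was 0.27 on array 1 and 0.08 on array 2, against 0.19 and 0.16 over all rows. Of the 7, 1 had the same sign on both arrays, where 41.1% of gene rows did, and 6 had opposite signs. With limma, 0 of the 7 passed an adjusted p of 0.05 (adjusted p = 0.999995 for each), and 0 passed at an unadjusted p under 0.05. Over all gene rows limma called 0 (0.0%) after adjustment, and 703 at an unadjusted p under 0.05. Both arrays were past 1.5-fold in 1 direction for 0 of the 7, against 258 gene rows (0.812%). The smallest two-sided p of an exact sign-flip permutation over 2 arrays is 0.5, so no single gene can pass such a test here. A missed threshold does not show that the genotypes have the same level: even the narrowest interval of the 7, that of Dio2, ran from -0.40 to 0.51.

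**Figure D3:**
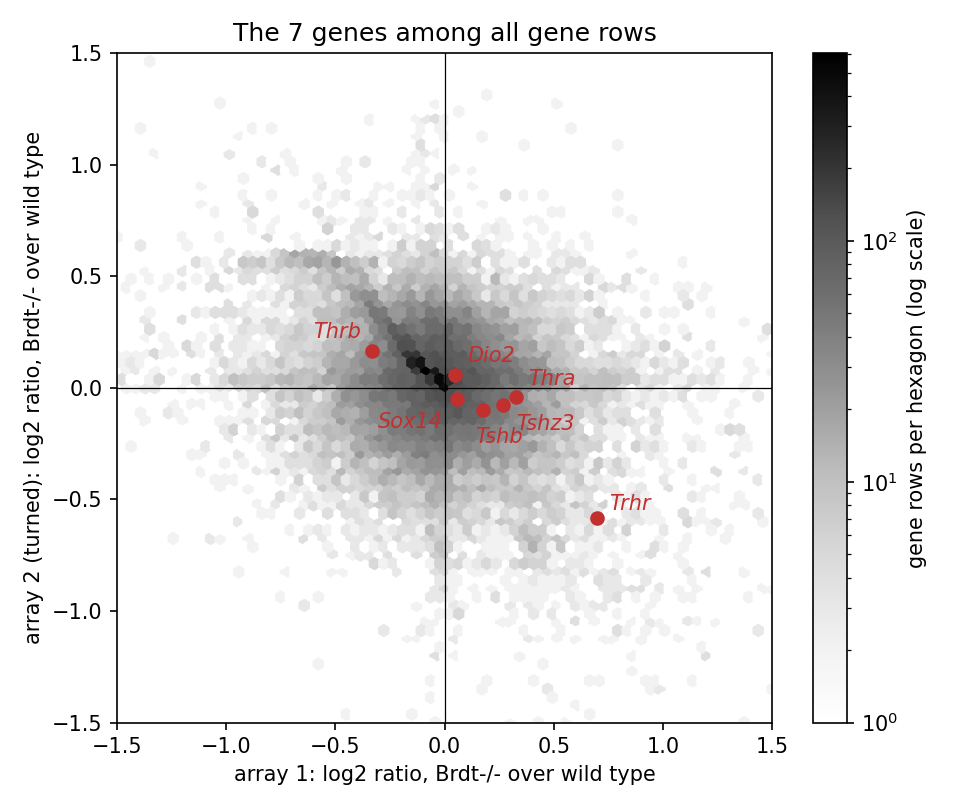
Log2 ratio of Brdt-/- over wild type on array 1 (horizontal axis) and on array 2 with its sign turned (vertical axis), with all gene rows as grey hexagons on a log colour scale and the 7 genes as red points; rows beyond 1.5 on either axis are not drawn. Of the 7, 5 lie at lower right, Thrb at upper left and Dio2 just above the origin; a dense curved band of rows runs from the origin to the upper left.

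The plot of all rows shows that band in the quadrant of rows that were lower on array 1 and higher on array 2. That quadrant held 35.4% of all gene rows and 55.4% of 1374 olfactory and vomeronasal receptor rows, genes of the nose that are not known from the pituitary. Of the 7 genes only Thrb lay there. Whether rows of the band were near background could not be measured without intensities, and the band's part in the values of Thrb was not tested.

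With array 2 left as deposited, 5 of the 7 genes were positive on both arrays, 1 (Thrb) was negative on both and Dio2 had opposite signs. Over all gene rows, 58.7% had the same sign in that orientation. Trhr then had a mean of 0.64 ± 0.08 (SD, n = 2; limma interval 0.34 to 0.94). It alone of the 7 then passed 1.5-fold in 1 direction on both arrays, as 3.17% of gene rows did, and its value on array 2 was at that limit. Its limma adjusted p was 0.465, short of the threshold. Tshb had a mean of 0.14 ± 0.05, Thra one of 0.18 ± 0.20 and Thrb one of -0.25 ± 0.12 (SD, n = 2 each). In that orientation the 2 columns count as genotype ratios only if both were deposited with the same genotype on top. The titles of both arrays name wild type before Brdt-/-, and both arrays list Brdt-/- under channel 2. No label states which is on top. Over all gene rows, the 2 columns as deposited had a Pearson correlation of 0.26 (Spearman 0.22), and turning array 2 reverses its sign.

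Other hormone genes were laid out like Trhr. Prl was at 0.63 and -0.58 and Gh at 0.43 and -0.65, so with array 2 as deposited their means were 0.60 and 0.54, beside 0.58 for Cga. Pomc, at -0.63 and -0.96, and Fshb, at 0.29 and 0.52, had the same sign on both turned arrays instead. Lhb was at -0.10 and 0.30. These genes were set beside Trhr after their values were seen.

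**Figure D4:**
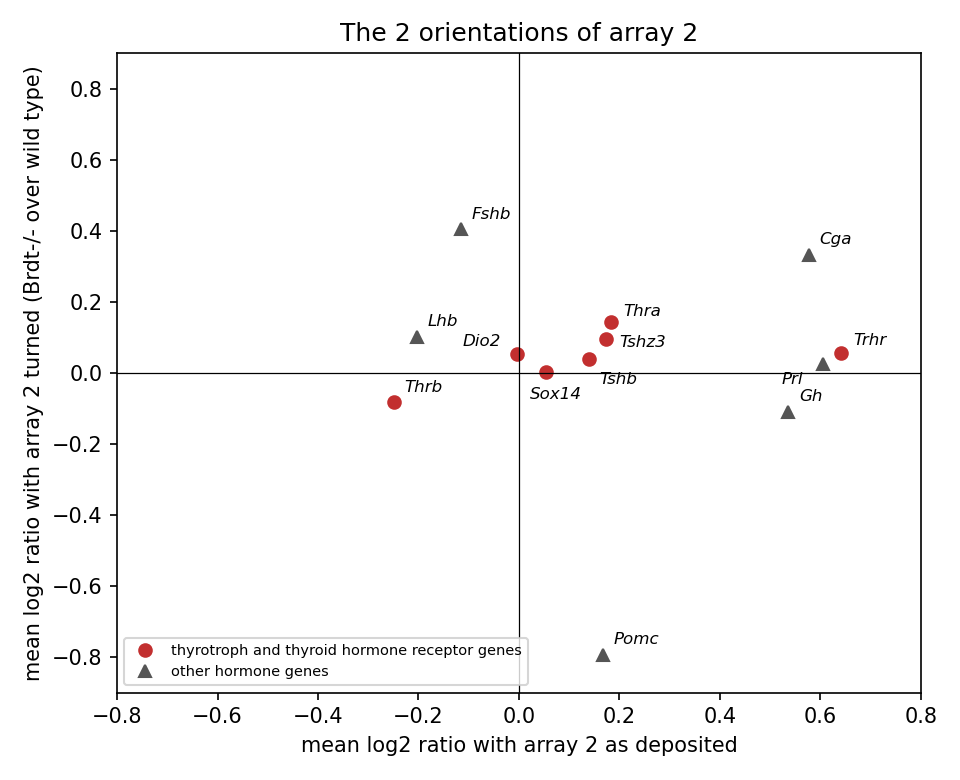
Mean log2 ratio of both arrays with array 2 as deposited (horizontal axis) against the mean with array 2 turned, Brdt-/- over wild type (vertical axis), for the 7 genes (circles) and 6 other hormone genes (triangles). Trhr, Prl, Gh and Cga lie between 0.54 and 0.64 on the horizontal axis, and the 7 genes lie between -0.08 and 0.14 on the vertical axis.

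Other rows bear on the genotype and the makeup of the pools. Brdt itself was at -0.30 and -0.43 (limma interval of the mean -0.83 to 0.11), and 11.9% of gene rows had a larger mean in size. With array 2 as deposited its mean was 0.07. The Brdt row thus does not establish the genotype or the orientation, and the probe's position relative to the cassette is not known here. Rows were present for Gh, Prl, Pomc, Lhb, Fshb and Tshb, but ratios cannot show that these markers of pituitary cells were abundant. Tbx19, listed with Pomc for corticotrophs and melanotrophs, was at 0.39 and 0.30, opposite in sign to Pomc on both arrays. The somatotroph marker Ghrhr was at 0.06 and 0.01, and the gonadotroph marker Gnrhr at 0.07 and 0.21. All 5 neutrophil markers were higher on both arrays, as were 6860 of the 31784 gene rows. These markers lay between 3.30 (Ngp) and 5.54 (S100a8) on array 1 and between 0.14 (Camp) and 1.32 (Ltf) on array 2. Of 3 red blood cell markers, Hba-a1 and Alas2 were at -0.10 and 1.56 and at -0.08 and 1.53, and Hba-a2 was higher on both arrays. Skeletal muscle markers ranged from -0.95 (Ckm) to 0.52 (Mylpf) on array 1 and from -1.43 (Ckm) to 0.13 (Tnnt3) on array 2. The posterior lobe genes Avp and Oxt were at 0.57 and 0.41 and at 0.14 and 0.27, and the stem cell markers Sox2 and Sox9 at 0.45 and 0.13 and at 0.47 and 0.07. The part of these cell types in the values of the 7 genes was not tested.

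By distance of the 2 log2 ratios, the genes most like Tshb were Bend4 (0.18 and -0.10), Eif2ak2 (0.18 and -0.10) and Ndufc1 (0.18 and -0.09). With only 2 arrays such likeness is common: 1259 gene rows (3.96%) lay within 0.1 of Tshb.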

How the data were processed

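Pituitary RNA was amplified and labelled with Cy3 or Cy5 for 2 Agilent arrays, per the labels' protocols. The deposited score in each column is a signed linear fold change (read from the values: none lay between -1 and 1), with 1 row per gene name. No source used here states how background was corrected, values normalized or probes combined. Scores were turned into log2 of their size with the sign kept, and the sign of array 2 was turned. Of 31840 rows, 56 control rows were left out. Of 31784 gene rows, 20794 had a current RefSeq symbol, 2749 an older one and 8241 none. With limma 3.58.1 (R 4.3.3) each mean was tested against 0 (intercept only, Benjamini-Hochberg over all gene rows, threshold 0.05), and the code was tested on simulated data. Where nothing states separate preparation, p-values measure the spread between the 2 arrays, each with its own pools. The dyes were also swapped between the arrays, so pool, array and dye differences cannot be told apart in that spread. Tables and plots used pandas 2.3.3 and matplotlib 3.10.9. The 7 genes, the lists and the tests were chosen with earlier results of these data known. Named were the 7 genes, up to 4 genes per list with the largest mean in size, the markers, Cga, Nr1d1, Brdt and the 3 genes nearest to Tshb. Alternatives were the orientation of array 2, centring, scaling, protein-coding genes only, other thresholds, an unmoderated statistic and single arrays. The number of arrays limits the precision.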

Additional observations from a re-analysis of the deposited data

Results flagged for a closer look

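A signal appeared in features that belong to no gene. The 10 E1A spike-in rows had a mean log2 size of 1.58 over both arrays, against 0.0675 for the negative control row, and these rows set the orientation used here.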

How the results depend on the processing

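The median of the 7 genes was 0.053 with array 2 turned, 0.14 with array 2 as deposited, 0.051 after centring and 0.021 after scaling. On single arrays it was 0.18 on array 1 and -0.051 on array 2, so its sign differed between the arrays. With array 2 as deposited, the mean of Dio2 turned to -0.0047, and the other 6 kept their sign. Scaling the arrays to the same SD turned the means of Trhr and Sox14, to -0.027 and -0.0035. Centring turned none of the 7. Restriction to protein-coding genes and the unmoderated statistic leave each gene's mean as it is, so they could not turn one. On single arrays (array 2 to array 1) the values ran from -0.10 to 0.18 for Tshb, -0.59 to 0.70 for Trhr, -0.079 to 0.27 for Tshz3, -0.051 to 0.058 for Sox14 and -0.042 to 0.33 for Thra, and from -0.33 on array 1 to 0.17 on array 2 for Thrb. List medians with array 2 as deposited were 0.080 for thyrotrophin-releasing hormone signalling, -0.037 for receptor partners, 0.037 for thyroid hormone responsive genes, -0.030 for other regulators, 0.11 for paralogues and neighbours, 0.16 for lineage genes and -0.081 for transport and metabolism (0.032 and -0.022 when turned). On single arrays the range was -0.15 to 0.0036 for thyrotrophin-releasing hormone signalling and -0.041 to -0.0061 for receptor partners. For thyroid hormone responsive genes it was -0.017 to 0.054, and for paralogues and neighbours 0.014 to 0.12. Lineage genes ran from -0.12 to 0.20, and transport and metabolism from -0.14 to 0.029. For other regulators the range was 0.037 to 0.057, and the median of their mean ratios with array 2 turned, -0.090, lay outside it. The turned medians of thyroid hormone responsive genes (-0.029) and of paralogues and neighbours (0.0095) also lay outside their own ranges. The turned median was -0.039 for thyrotrophin-releasing hormone signalling and -0.0063 for receptor partners, both within their ranges. Limma's count of 0 genes became 703 without adjustment and 2 with the unmoderated statistic, and none of the 7 passed either. The count past 1.5-fold was 258, and 1008 with array 2 as deposited, 146 over protein-coding genes, 1697 at 1.2-fold, 36 at 2-fold and 2921 to 4393 on a single array. Fewer rows or a higher threshold lower it by construction. For the remaining differences the cause was not tested. A single array allows no test. Each array holds 1 pool of each genotype, so the test reported is a paired one.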
